A study of Mus musculus with 2 samples.

Results

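Costimulatory receptors are the surface proteins that add to the signal of the T cell receptor when a T cell meets its antigen. The transcripts of 8 of them were followed here, out of 32285 genes counted. They were picked by gene symbol: the TNF receptor family members *Tnfrsf4* (OX40), *Tnfrsf9* (4-1BB), *Tnfrsf18* (GITR), *Tnfrsf1b* (TNFR2) and *Cd27*, the CD28 family members *Cd28* and *Icos*, and *Cd226* (DNAM-1). All 8 passed the filter on low values, a level of at least 10 CPM (counts scaled to a total of 1000000) in 1 library, in every group of cells described.

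The cells were CD8+ tumor-infiltrating lymphocytes (TIL) from B16-F0 tumors, a transplanted mouse melanoma, taken on day 14 of tumor growth. The hosts were male C57BL/6J mice aged 16 weeks, either lean on normal chow (NC) or obese after 12 weeks on western diet (WD). Each diet gave 1 droplet library of CD8-sorted cells with 3′ counts of unique molecular identifiers (UMIs), each of which marks 1 captured RNA molecule. With 1 library per diet there were no replicates, the number of mice behind each library is not given in the sources used here, and no test between diets was possible.

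The TNF receptor family members have no enzyme activity of their own. They bind TRAF adaptor proteins, through which they switch on NF-kB and raise survival genes. CD28 and ICOS recruit PI3K, and CD28 shares its ligands CD80 and CD86 with the inhibitory receptor CTLA-4, while CD226 shares its ligand CD155 with TIGIT and CD96. OX40, 4-1BB and GITR are known to be induced by antigen, whereas CD27 and CD28 are already carried by naive T cells.

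In the GENCODE annotation of GRCm38 the receptor genes form 2 neighbourhoods. *Tnfrsf4* (chr4:156013843-156016612) and *Tnfrsf18* (chr4:156026164-156028895) lie on the same strand with 9551 bases between them. *Tnfrsf9* (chr4:150914562-150946102, plus strand) and *Tnfrsf1b* (chr4:145213463-145246870, minus strand) are on the same chromosome. *Cd28* (chr1:60716800-60773359) and *Icos* (chr1:60977927-61000320) are both on the plus strand, with *Ctla4* in the 204567 bases between them. *Cd27* (chr6:125232622-125237010) is on the minus strand. *Tnfrsf9* and *Cd27* each overlap a protein-coding gene on the opposite strand, *Camta1* and *Vamp1*, and *Tnfrsf18* overlaps the antisense gene *Gm16008*. On the same strand, *Cd27* overlaps *Mir8113* and *Icos* overlaps *Gm37039*.

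Promoters of *Tnfrsf4*, *Tnfrsf9* and *Tnfrsf18*, the 3 receptors with the highest odds ratios of detection in the same cell, are printed 5′ to 3′ on the plus strand, from RefSeq on GRCm38.p6. Each window runs from 250 bases before to 50 bases after an annotated start, and *Tnfrsf9* has 2 such starts. The *Tnfrsf4* window ends before the GENCODE start of that gene given above. Both *Tnfrsf9* windows lie within that gene, past its GENCODE start. Capitals mark matches to the AP-1 motif TGANTCA or to the NF-kB consensus, searched on both strands.
Tnfrsf9 at chr4:150919905-150920204: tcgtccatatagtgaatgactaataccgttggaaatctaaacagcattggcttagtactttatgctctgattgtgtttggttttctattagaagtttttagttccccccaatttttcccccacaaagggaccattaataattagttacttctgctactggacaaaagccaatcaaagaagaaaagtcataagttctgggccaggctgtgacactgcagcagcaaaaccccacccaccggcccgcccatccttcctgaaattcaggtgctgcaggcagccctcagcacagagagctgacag
Tnfrsf9 at chr4:150927749-150928048: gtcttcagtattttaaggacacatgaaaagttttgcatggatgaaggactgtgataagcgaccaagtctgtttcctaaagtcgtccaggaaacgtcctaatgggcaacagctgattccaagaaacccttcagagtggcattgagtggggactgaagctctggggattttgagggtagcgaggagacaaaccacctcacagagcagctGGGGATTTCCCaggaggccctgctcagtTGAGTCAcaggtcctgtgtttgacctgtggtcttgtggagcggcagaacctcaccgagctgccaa
Tnfrsf4 at chr4:156013445-156013744: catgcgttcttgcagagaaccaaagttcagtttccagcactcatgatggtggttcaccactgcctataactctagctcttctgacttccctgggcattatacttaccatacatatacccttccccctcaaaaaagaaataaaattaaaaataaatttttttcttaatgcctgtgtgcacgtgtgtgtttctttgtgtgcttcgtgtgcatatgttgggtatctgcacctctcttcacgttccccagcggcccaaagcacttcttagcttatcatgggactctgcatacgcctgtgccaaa
Tnfrsf18 at chr4:156026072-156026371: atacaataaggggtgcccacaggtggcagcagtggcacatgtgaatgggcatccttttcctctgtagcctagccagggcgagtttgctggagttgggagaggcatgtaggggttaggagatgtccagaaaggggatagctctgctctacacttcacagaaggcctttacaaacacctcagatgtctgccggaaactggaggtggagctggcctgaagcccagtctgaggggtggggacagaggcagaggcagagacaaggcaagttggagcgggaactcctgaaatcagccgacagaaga

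Only the second *Tnfrsf9* window, among the 6 windows found for 5 of the 8 genes, held a match to AP-1 (1 match) or to NF-kB (2 overlapping matches). Among all 32817 promoter windows of the same length, 7.81% held AP-1 and 8.46% held NF-kB. The same window held 1 match to the RUNX motif TGTGGT, which 16.8% of all windows held. The short NFAT core GGAAA was in 5 of the 6 windows and in 61.3% of all. A match describes the letters and was not tested as a binding site.

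After the filters 2456 cells with 27815785 UMIs remained for lean and 2289 cells with 28705830 UMIs for obese, with medians of 7958 and 9103 UMIs per cell. Only 2 cell barcodes were shared between the libraries. The 6 CD8 T cell markers were all detected, and at least 2 of them were in 2429 of the lean and 2257 of the obese cells. Of other cells, a *Foxp3* UMI was in 19 lean and 17 obese cells, and the 4 melanoma markers summed to 19 and 29 UMIs. Red cell globins were at 0 in lean, which allows up to 0.108 CPM, and at 9193 UMIs in obese, of which 9167 were in the ungated cells. Of those obese ungated cells, 1 had UMIs of at least 2 of the 4 globin genes. Dendritic markers summed to 23.6 CPM in lean and 72.7 CPM in obese. The other lists were at 57.8 and 65.8 CPM for CD4 and regulatory T cells, 19.6 and 16.7 CPM for myeloid cells, 4.46 and 3.87 CPM for NK and gamma-delta T cells, and 3.27 and 4.22 CPM for B cells. The 3 lean and 9 obese cells with 2 dendritic markers and no *Cd3* UMI had a *Cd28* UMI in 0 and 1 cells, and are too few to set a share of free RNA.

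Cells were gated on genes other than the 8. The cycling gate needed a UMI of at least 3 of 10 proliferation genes, and held 539 lean cells (21.9%) and 621 obese cells (27.1%). The effector gate needed at least 2 UMIs and 500 CPM of *Gzmb* and *Prf1* together, granzyme B and perforin, and held 712 (29.0%) and 397 (17.3%). The memory-like gate needed a UMI of at least 2 of 6 genes of naive and memory T cells, among them *Tcf7*, *Lef1* and *Il7r*, and held 785 (32.0%) and 795 (34.7%). The other 420 (17.1%) and 476 (20.8%) stayed ungated. Near the cuts were 226 lean and 188 obese cells with 2 or 3 proliferation genes, 249 and 266 cells at 250 to 750 CPM of the effector pair, and 373 and 420 cells with 1 or 2 memory genes. *Gzmb*, which helps define the effector gate, was within it at 2193 CPM in lean and 1353 CPM in obese. Whether the size of the gate follows the level of its genes was not tested. In the memory-like gate *Gzmb* was at 34.9 and 38.2 CPM. Cycling cells were deep, with medians of 22357 and 22679 UMIs, against 7271 to 8349 in the effector and memory-like gates. Below, a level is the UMIs of a gene summed over the cells of a gate, as CPM of all UMIs of those cells, with an exact Poisson 95% interval in brackets. All intervals cover counting error only, and those on UMIs treat each UMI as independent, so they leave out the spread between cells.

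*Tnfrsf9* and *Tnfrsf4* separated the gates most. *Tnfrsf9*, the 4-1BB receptor, stood at 320 CPM (306 to 333) in the effector gate of the lean library and 325 CPM (307 to 343) in that of the obese library. In the memory-like gate it stood at 48.5 CPM (43.2 to 54.3) and 29.9 CPM (26.0 to 34.3). Cycling cells held 341 CPM (331 to 352) and 262 CPM (254 to 270). The memory-like level was thus far below both others in each library. The log2 ratio of effector over memory-like was 2.72 (2.54 to 2.90) in lean and 3.44 (3.23 to 3.66) in obese.

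*Tnfrsf4*, the OX40 receptor, was also far lowest in memory-like cells. It was at 139 CPM (130 to 148) and 152 CPM (140 to 164) in effector cells, at 36.2 CPM (31.6 to 41.2) and 37.7 CPM (33.2 to 42.5) in memory-like cells, and at 175 CPM (168 to 183) and 136 CPM (130 to 142) in cycling cells. The effector over memory-like log2 ratio was 1.94 in lean and 2.01 in obese. Without the 10 cells of each gate that held the most *Tnfrsf4* UMIs, effector levels were 111 and 110 CPM. Memory-like levels were then 15.4 and 17.6 CPM. The ungated level of *Tnfrsf4*, 153 CPM in both libraries, overlapped that of the effector gate. Without the 10 cells with the most *Tnfrsf4* UMIs, the ungated level was 71.6 CPM in lean and 84.4 CPM in obese. Those 10 cells are a larger part of a gate with fewer cells. Cells with a *Foxp3* UMI, the transcript of the regulatory T cell factor, had 929 CPM in lean and 719 CPM in obese, and held 7.21% and 6.16% of all *Tnfrsf4* UMIs. Without cells that had a *Foxp3* or *Cd4* UMI, the level over all cells was 124 CPM in lean and 109 CPM in obese.

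*Tnfrsf18*, the GITR receptor, differed less between gates. Lean levels were 225 CPM (214 to 237) in the effector, 151 CPM (141 to 161) in the memory-like and 219 CPM (211 to 228) in the cycling gate. Obese levels were 280 CPM (264 to 297), 121 CPM (113 to 130) and 198 CPM (191 to 205). In both libraries the memory-like gate was lowest, and in lean the effector and cycling intervals overlapped. The effector over memory-like log2 ratio was 0.58 (0.46 to 0.70) in lean and 1.21 (1.08 to 1.34) in obese.

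*Tnfrsf1b*, the second receptor for TNF, was lowest in memory-like cells at 19.0 CPM (15.7 to 22.7) and 22.5 CPM (19.1 to 26.3). It was highest in effector cells at 51.3 CPM (46.0 to 56.9) and 43.4 CPM (37.1 to 50.5), where the obese interval overlapped that of the ungated cells. Cycling cells had 34 CPM in lean and 34.3 CPM in obese. *Cd27*, the receptor for CD70, was the flattest of the TNF receptor family members. It had 183 CPM (173 to 193) and 164 CPM (151 to 177) in effector, 142 CPM (133 to 151) and 126 CPM (118 to 135) in memory-like, and 142 CPM (136 to 149) and 135 CPM (129 to 141) in cycling cells. Its memory-like and cycling intervals overlapped in each library.

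*Cd28* followed another order. Its level was 227 CPM (216 to 238) in lean effector and 213 CPM (201 to 224) in lean memory-like cells, and 312 CPM (294 to 330) and 304 CPM (291 to 317) in the same gates of the obese library. Cycling cells were lowest, at 133 CPM (127 to 139) in lean and 186 CPM (179 to 193) in obese. The log2 ratio of effector over memory-like was 0.09 (−0.01 to 0.20) and 0.03 (−0.07 to 0.14), and that of cycling over memory-like was −0.68 and −0.71. *Cd28* was thus the only one of the 8 that was lower in cycling than in memory-like cells in both libraries.

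*Icos*, the inducible relative of CD28, had 74.8 CPM (68.4 to 81.5) in lean effector cells, 26.1 CPM (22.2 to 30.5) in memory-like and 43.8 CPM (40.2 to 47.6) in cycling cells. In the obese library the same gates had 54.5 CPM (47.4 to 62.4), 43.0 CPM (38.2 to 48.1) and 34.7 CPM (31.8 to 37.9). The gap between effector and memory-like cells was a log2 ratio of 1.52 (1.26 to 1.78) in lean and 0.34 (0.08 to 0.60) in obese. With each cell thinned to 2000 UMIs the obese ratio was −0.10, a value without an interval. It rested on means of 0.0914 *Icos* UMIs in 383 effector cells and 0.0980 in 786 memory-like cells. *Cd226*, an activating adhesion receptor, had 126 CPM (118 to 135) and 160 CPM (148 to 173) in effector cells. It had 58.9 CPM (53.0 to 65.3) and 76.3 CPM (70.0 to 83.1) in memory-like cells and 99.6 and 112 CPM in cycling cells. The log2 ratio of effector over memory-like was 1.10 in lean and 1.07 in obese.

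**Figure D1:**
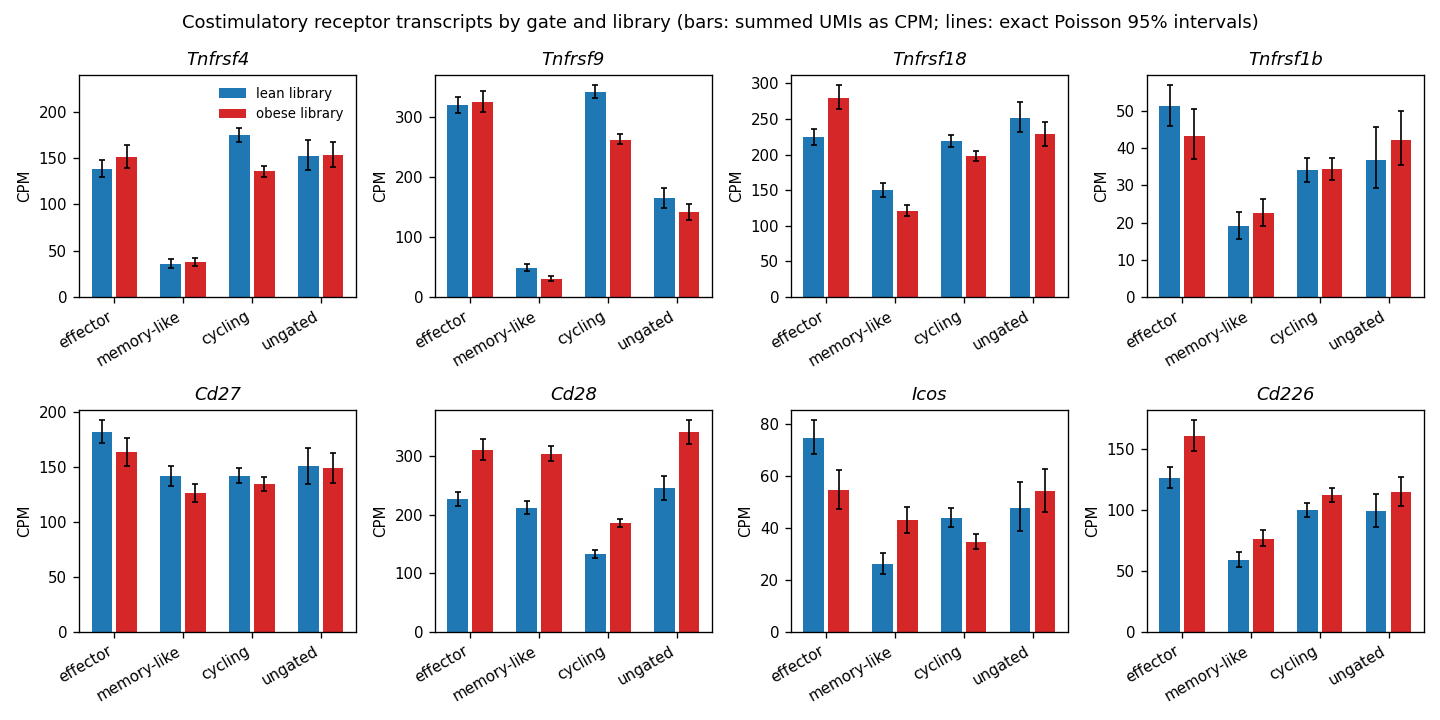
Level of each receptor gene in CPM (y axis, one scale per gene) in the 3 gates and the ungated cells, in the lean and obese libraries (bars) with exact Poisson 95% intervals (lines). *Tnfrsf9* and *Tnfrsf4* drop in the memory-like gate, *Cd28* drops in the cycling gate, and the obese bar of *Cd28* stands above the lean bar in every group.

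All 8 receptor genes were higher in the effector than in the memory-like gate in both libraries, as were 60.8% of the 7371 genes with at least 10 CPM in 1 of the groups. None was lower in both, as 22.8% of those genes were. By at least 2-fold in both libraries, 3 were higher (*Tnfrsf9*, *Tnfrsf4* and *Cd226*) and 0 lower, against 6.23% and 2.58% of all genes. The median log2 ratio of the 8 was 1.27 in lean and 1.01 in obese, against 0.26 and 0.23 over all genes. Cycling cells had more than memory-like cells in both libraries for 6 of the 8 and less for 1, against 60.2% and 30.4% of genes. By at least 2-fold 2 were at least 2-fold higher (*Tnfrsf9* and *Tnfrsf4*) and 0 lower, against 14% and 6.01%. Between cycling and effector cells 0 were higher in both libraries and 6 lower, against 40.7% and 43.5%. The remaining 2, *Tnfrsf4* and *Tnfrsf9*, were higher in cycling cells of the lean library and lower in those of the obese library. After thinning, both were higher in cycling cells of the obese library as well, in means without an interval. The obese means of *Tnfrsf9* were then 0.478 UMIs per cell in cycling and 0.423 in effector cells. Those of *Tnfrsf4* were 0.219 and 0.191.

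Over all cells, 2 of the 8 were higher in the obese library, *Cd28* and *Cd226*, against 57.7% of 7064 genes. The median log2 ratio of obese over lean was −0.12 for the 8 and 0.04 for all genes. None passed a log2 ratio of 0.5 either way over all cells, which 2.51% of genes did upward and 1.84% downward. Gate by gate, 5 were higher in effector cells (54.5% of genes), 5 in memory-like cells (61.7%), 3 in cycling cells (55.4%) and 5 in ungated cells (49.9%). Past 0.5 were 0 in effector cells, against 8.12% of genes upward and 4.63% downward, and 0 in cycling cells, against 3.26% and 2.42%. In ungated cells 0 were past it as well, against 6.00% and 7.14%. In memory-like cells 2 were past it upward (*Icos* and *Cd28*, against 6.19%) and 1 downward (*Tnfrsf9*, against 1.48%). Such counts over 8 genes were not tested, and the account below is by gene.

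*Cd28* was higher in the obese library in every gate by nearly the same ratio. Over all cells it stood at 183 CPM (178 to 188) in lean and 249 CPM (243 to 255) in obese, on 5083 and 7149 UMIs. The log2 ratio was 0.45 (0.39 to 0.50) over all cells, 0.46 (0.35 to 0.57) in effector, 0.52 (0.42 to 0.62) in memory-like, 0.49 (0.40 to 0.57) in cycling and 0.47 (0.32 to 0.62) in ungated cells. No gate's lean and obese intervals overlapped. Of the 6091 genes with at least 10 CPM in each of these 4 groups, 1.05% had a ratio of at least 0.4 in all 4, a limit chosen after the values of *Cd28* were seen. Cells with at least 1 *Cd28* UMI made up 74.1% of the lean and 84.1% of the obese library, and 33.1% and 42.0% after thinning to 2000 UMIs. The alternatives tried gave ratios from 0.36 to 0.52 over all cells. Dendritic markers were at 35.4 CPM in lean and 163 CPM in obese memory-like cells, and at 25.1 and 185 CPM in ungated cells, where red cell globins were at 0 and 2866 CPM. In effector cells dendritic markers were at 19.0 and 8.01 CPM and in cycling cells at 20.1 and 22.2 CPM, where the *Cd28* ratios were 0.46 and 0.49. Whether such RNA bears on the *Cd28* ratios or the memory-like ratio of *Icos* was not tested. The dendritic-like cells without a *Cd3* UMI held 0% of *Cd28* UMIs in lean and 0.0140% in obese, and 0% and 0.0838% of *Icos* UMIs.

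*Cd226*, which lies on chromosome 18, was also higher in the obese library in each gate, by a smaller ratio. It stood at 97.1 CPM (93.4 to 101) in lean and 110 CPM (106 to 114) in obese, a log2 ratio of 0.18 (0.11 to 0.26), which was 0.04 with thinning to 2000 UMIs. The ratio was 0.34 (0.19 to 0.49) in effector, 0.37 (0.18 to 0.57) in memory-like and 0.17 (0.06 to 0.28) in cycling cells. Over the alternatives it ranged from 0.13 to 0.54 in effector, 0.14 to 0.47 in memory-like and 0.09 to 0.18 in cycling cells. The lowest effector and memory-like values lay outside these intervals. In the ungated cells the ratio was 0.21 (−0.03 to 0.46), an interval that includes 0. Of the 6091 genes, 21.5% were higher in all 4 groups, as *Cd28* and *Cd226* were.

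*Icos* went in opposite directions in different gates. In memory-like cells it was higher in the obese library, with a log2 ratio of 0.72 (0.44 to 1.0) on 161 and 300 UMIs. In effector cells the ratio was −0.46 (−0.69 to −0.22), and in cycling cells −0.34 (−0.51 to −0.16). The share of memory-like cells with an *Icos* UMI was 15.9% (13.4 to 18.7) in lean and 27.4% (24.3 to 30.7) in obese, and 4.48% and 8.91% after thinning. Within memory-like cells the higher level was seen both with *Ccl5* (27.4 and 46.2 CPM) and, on 32 and 54 UMIs, without it (22.0 and 32.4 CPM, intervals overlapping). The levels over all cells, 47.8 CPM (45.3 to 50.5) and 41.6 CPM (39.2 to 44.0), mix these directions, and their log2 ratio of −0.20 was 0.0036 after thinning.

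*Tnfrsf9* was lower in the obese library over all cells, at 200 CPM (195 to 206) against 257 CPM (251 to 263), a log2 ratio of −0.36 (−0.41 to −0.31). With the mix of gates held equal in both libraries the ratio was −0.28. That step evens out the shares of the gates, not the cells within a gate. Within the cycling gate *Gzmb* was at 1673 CPM in lean and 811 CPM in obese, and *Lag3* at 286 and 163 CPM. The proliferation gene *Mki67* was at 230 and 248 CPM there. Whether these differences bear on the cycling ratios of *Tnfrsf9* or *Tnfrsf4* was not tested. In cycling cells the *Tnfrsf9* ratio was −0.38 (−0.45 to −0.32), and in memory-like cells −0.70 (−0.96 to −0.44). In effector cells it was 0.02 (−0.08 to 0.12), a value that depended on the processing: it was −0.31 with cells thinned to 2000 UMIs and 0.31 with stricter gate cuts. The share of effector cells with a UMI was nevertheless 53.5% in lean and 37.3% in obese, and 30.7% and 22.7% after thinning. Effector cells with a UMI held 5.74 of them on average in lean and 8.49 in obese. Without the 10 cells that held the most UMIs, the effector levels were 285 and 245 CPM and the log2 ratio was −0.22. Those 10 cells are a larger part of the 397 obese than of the 712 lean effector cells, so leaving them out weighs more on the obese level.

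The UMIs of *Tnfrsf9* in memory-like cells were held by few cells. The 10 cells with the most UMIs held 49.2% of that gate's *Tnfrsf9* UMIs in lean and 49.8% in obese, and 1 lean cell held 51 of 299. Without those 10 cells the levels were 25.5 and 15.4 CPM, a log2 ratio of −0.73, and with stricter gate cuts the ratio was −0.13. Split by *Ccl5*, a chemokine of antigen-experienced cells, the gate had 32.5 and 32.3 CPM in the cells with *Ccl5*, on 153 and 172 UMIs. In those without it the level was 100 CPM (84.6 to 118) in lean and 22.2 CPM (15.6 to 30.6) in obese. That difference, a log2 ratio of −2.17, came from 24 lean and 10 obese cells with a UMI, and the lean cell with 51 UMIs was one of them.

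*Tnfrsf4* was lower in the obese library in cycling cells, with a log2 ratio of −0.37 (−0.46 to −0.28). It was 0.13 (−0.02 to 0.28) in effector and 0.06 (−0.20 to 0.32) in memory-like cells, and 0.01 in ungated cells, intervals that include 0. Over all cells the levels were 134 CPM (129 to 138) and 116 CPM (112 to 120), a ratio of −0.20. Within cycling cells the obese level was lower both in mitotic cells (178 and 131 CPM) and in the rest (169 and 147 CPM). The cycling ratio ranged over the alternatives from −0.55 with stricter gate cuts to −0.08 with cells under 20000 UMIs. The effector ratio ranged from −0.21 with thinning to 0.37 with stricter gate cuts, which also gave 0.70 in memory-like cells.

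*Tnfrsf18* was higher in the obese library in effector cells, at a log2 ratio of 0.32 (0.20 to 0.43). It was lower in memory-like cells, at −0.31 (−0.45 to −0.17), and in cycling cells, at −0.15 (−0.22 to −0.07). Within cycling cells it was lower in the mitotic ones (224 and 188 CPM) and not in the rest (207 and 223 CPM). The effector value turned to −0.15, without an interval, when each cell was thinned to 2000 UMIs, and was 0.14 without the 10 cells with the most UMIs. Those 10 cells weigh more in the obese effector gate, which held fewer cells. The share of effector cells with a UMI was 66.3% in lean and 61.5% in obese, and 32.3% and 29.8% after thinning. No order is read from these shares, which go against the level.

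*Cd27* was slightly lower in the obese library over all cells, at 138 CPM (134 to 143) against 153 CPM (148 to 157), a log2 ratio of −0.15 (−0.21 to −0.08). The ratio was −0.16 in effector cells, where thinning gave 0.0084, and −0.17 in memory-like cells, and in cycling cells it was −0.08 (−0.17 to 0.01). *Tnfrsf1b* was at 35.2 CPM (33.0 to 37.4) in lean and 33.5 CPM (31.5 to 35.7) in obese. Its ratio was −0.07 (−0.20 to 0.06) over all cells, and the interval included 0 in all 3 gates and in the ungated cells, where it reached from −0.21 to 0.61.

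**Figure D2:**
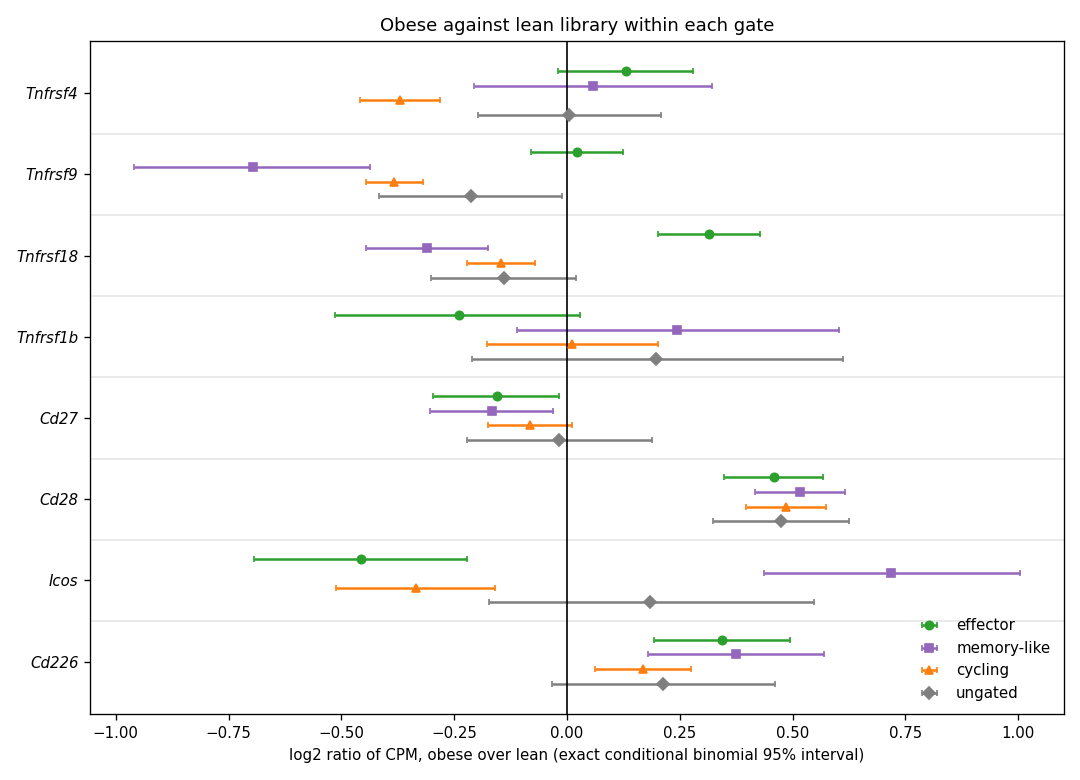
Log2 ratio of CPM, obese over lean (x axis), for each receptor gene in the effector, memory-like, cycling and ungated cells (symbols), with exact conditional binomial 95% intervals (lines). The 4 *Cd28* symbols lie together between 0.46 and 0.52, while *Icos* spans from −0.46 in effector to 0.72 in memory-like cells.

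The gates were divided further by genes that are not among the 8. Effector cells with at least 2 UMIs of *Gzmc*, *Gzmd*, *Gzme* and *Gzmf*, granzymes of strongly stimulated killer cells, numbered 114 in lean and 25 in obese. They were deeper, with medians of 14617.5 and 18389 UMIs, against 7563.5 and 7517 in the other effector cells. Whether depth bears on their receptor levels was not tested. The granzyme-rich cells had the highest *Tnfrsf9* of all finer states, 463 CPM in lean and 694 CPM in obese, against 266 and 273 CPM in the other effector cells. *Tnfrsf4* was also higher in them, at 221 and 243 CPM against 108 and 139 CPM. *Cd28* went the other way, with 193 and 195 CPM against 239 and 328 CPM. In these granzyme-rich cells *Cd28* was the same in both libraries within counting error, a log2 ratio of 0.01 (−0.33 to 0.35). In the other 7 states its ratio lay between 0.39 and 0.55.

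*Cd226* in the granzyme-rich cells was at 104 CPM in lean and 173 CPM in obese, on 195 and 82 UMIs, a log2 ratio of 0.73 (0.34 to 1.11). Ungated cells with interferon-induced genes, 75 in lean and 98 in obese, had the highest *Cd28* of the states, 283 and 380 CPM. Over the other ungated cells its log2 ratio was 0.27 (−0.02 to 0.55) in lean, an interval that includes 0, and 0.22 (0.03 to 0.41) in obese. The cells with interferon-induced genes had 77.4 and 61.4 CPM of *Tnfrsf9*, below the 188 and 170 CPM of the other ungated cells. *Tnfrsf1b* was higher in memory-like cells with *Ccl5* (20.6 and 26.1 CPM) than without it (13.7 and 10.8 CPM), beyond counting error in the obese library only, at log2 ratios of 0.59 (−0.12 to 1.36) and 1.27 (0.56 to 2.07). Whether that step differed between libraries was not tested.

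**Figure D3:**
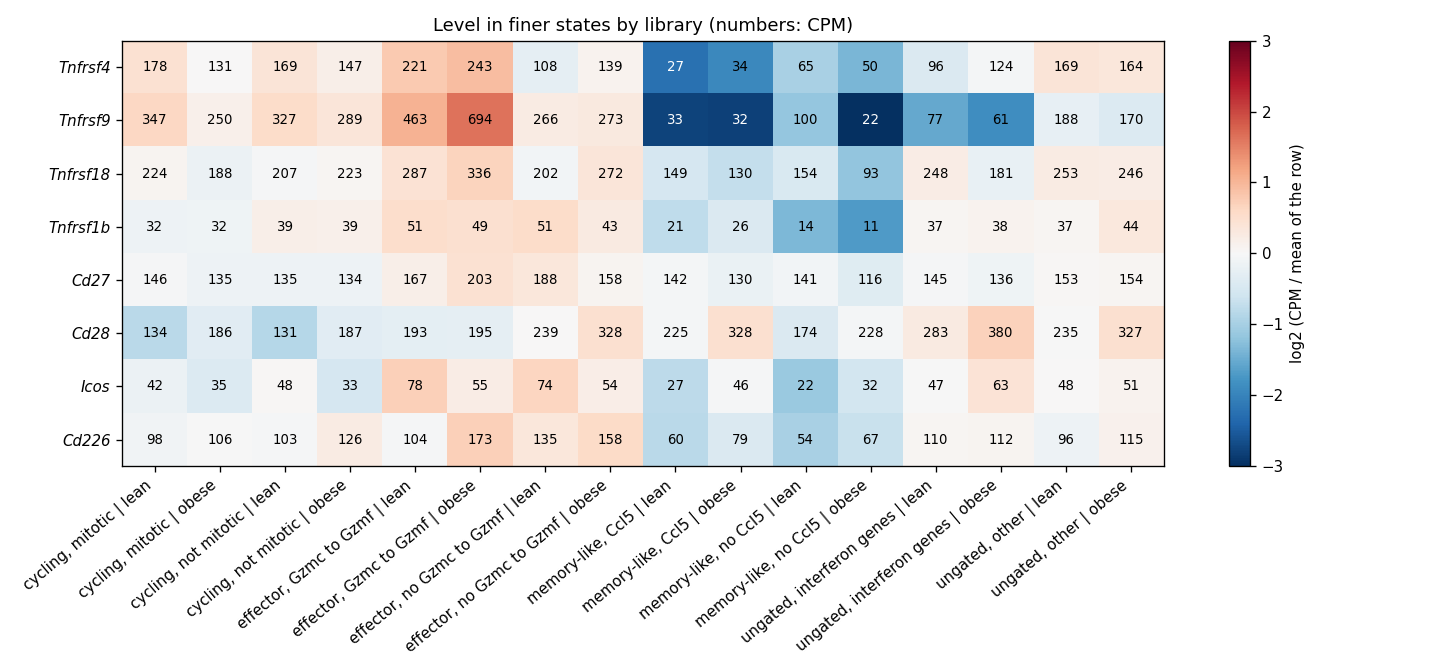
Level of each receptor gene (rows) in 8 finer states of each library (columns), with the CPM printed and the colour giving its log2 ratio to the mean of the row. Within a row, *Tnfrsf9* runs from 22.2 CPM in obese memory-like cells without *Ccl5* to 694 CPM in obese granzyme-rich effector cells, and *Cd27* stays between 116 and 203 CPM.

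The receptors differed in how many cells carried their UMIs. The 10% of cells richest in *Tnfrsf4* held 79.2% of its UMIs in lean and 79.4% in obese. For *Tnfrsf9* this share was 61.2% and 66.4%, for *Tnfrsf18* 49.5% and 53.0%, and for *Cd28* 33.5% and 30.5%. These shares depend on each gene's own UMI count. With every cell thinned to 2000 UMIs, the variance of the counts over their mean, which is 1 for random sampling of equal cells, was 2.30 and 2.18 for *Tnfrsf4* and 1.83 and 2.10 for *Tnfrsf9*. It was 1.49 and 1.45 for *Tnfrsf18*, and between 1.06 and 1.29 for the other 5. The mean thinned count in lean was 0.394 for *Tnfrsf18* and 0.0785 for *Tnfrsf1b*. The ratio of variance to mean depends on that mean too, and does not rank genes of unlike mean. Within memory-like cells it was still 1.74 and 2.33 for *Tnfrsf4*. The highest *Tnfrsf4* count in a cell was 68 UMIs in lean and 70 in obese.

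**Figure D4:**
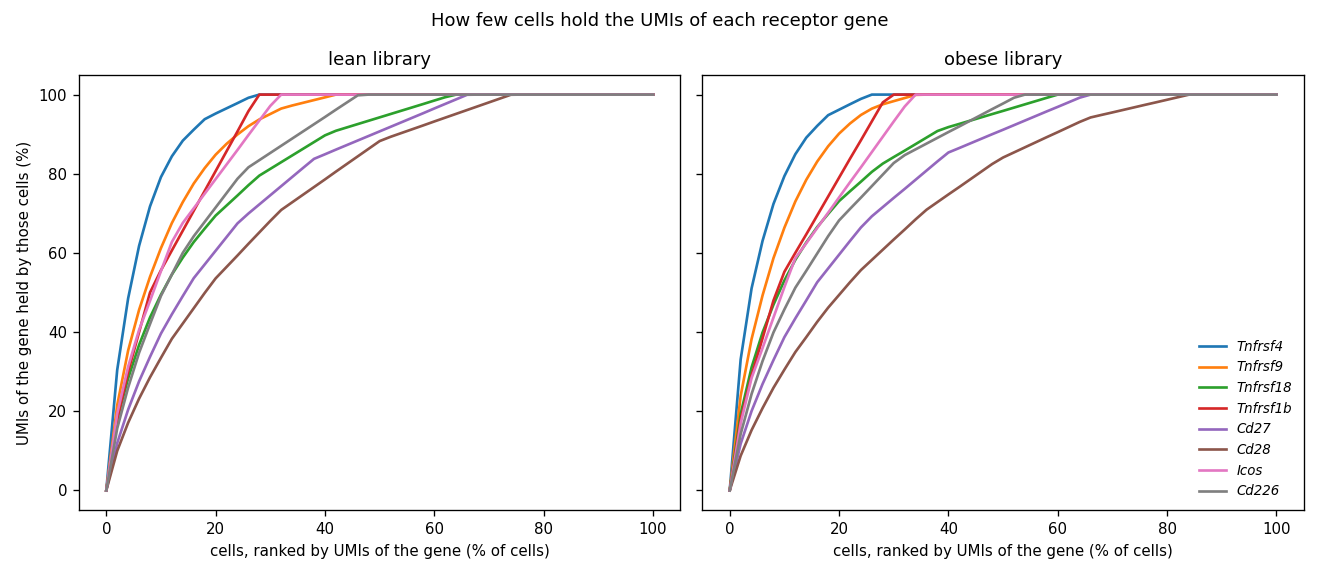
Share of a gene's UMIs (y axis, %) held by the richest cells (x axis, % of cells, ranked by UMIs of that gene) in the lean and the obese library, one line per receptor gene. *Tnfrsf4* climbs fastest, with 79.2% and 79.4% of UMIs in 10% of the cells, and *Cd28* slowest, with 33.5% and 30.5%.

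Some receptors were found in the same cells more often than others. Pairs were compared within 40 strata, 10 of depth in each gate and the ungated cells, by a Mantel-Haenszel odds ratio. It is a description of the cells of 1 library, whose pairs share cells and depth. *Tnfrsf4* and *Tnfrsf9* were detected together in 572 lean cells, against 502 expected from the strata if detection were independent, and in 489 obese cells, against 397. The odds ratios were 4.44 and 7.79. *Tnfrsf4* with its neighbour *Tnfrsf18* had 3.42 and 3.24, and *Tnfrsf9* with *Tnfrsf18* 1.97 and 2.44. *Cd28* with *Tnfrsf9* was below 1 in both, at 0.66 and 0.57, as was *Cd28* with *Tnfrsf4* at 0.85 and 0.74. The odds ratios include the 19 lean and 17 obese cells with a *Foxp3* UMI, and were not recomputed without them. Of these cells, 19 and 15 had a *Tnfrsf4* UMI, 18 and 14 a *Tnfrsf9* UMI and 19 and 16 a *Tnfrsf18* UMI.

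The 2 receptors that went together were also found with inhibitory receptors of stimulated T cells. With *Lag3*, the odds ratio of *Tnfrsf4* was 4.74 in lean and 4.56 in obese, and that of *Tnfrsf9* 3.83 and 4.57. With *Pdcd1*, which encodes PD-1, they were 3.17 and 3.68 for *Tnfrsf4* and 3.37 and 3.19 for *Tnfrsf9*. *Tnfrsf9* with *Havcr2*, which encodes TIM-3, had 3.32 and 3.58, and *Tnfrsf4* with *Havcr2* 1.67 and 2.56. *Tnfrsf4* with *Cd96* was lower, at 1.21 and 1.07. Other receptors were found with *Lag3* too, *Tnfrsf1b* at 2.64 and 1.78 and *Icos* at 2.23 and 1.48. No other gene pairs were computed as a reference. With *Ctla4*, *Tnfrsf4* had 1.89 and 1.80, *Icos* 1.86 and 1.70, *Tnfrsf9* 1.42 and 1.72, and *Cd28* 1.34 and 1.48. After thinning, a cell held on average 1.52 of the 8 receptors in lean and 1.49 in obese. That number was 1.89 and 1.83 in effector cells and 1.06 and 1.16 in memory-like cells.

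**Figure D5:**
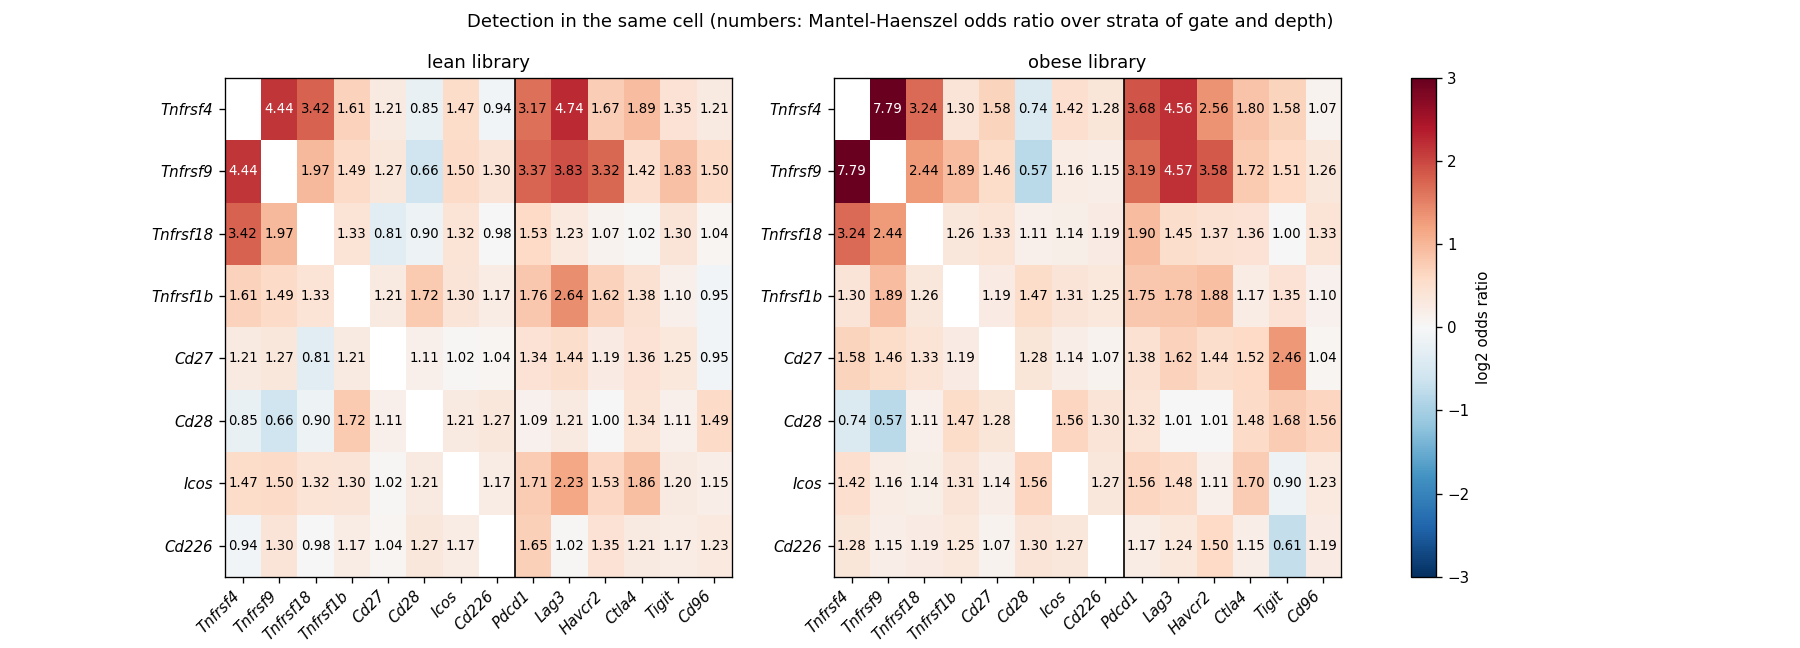
Odds ratios of detection in the same cell for pairs of receptor genes and, right of the line, with inhibitory receptor genes, in the lean and the obese library (numbers; colour is their log2). *Tnfrsf4* with *Tnfrsf9* reads 4.44 and 7.79, and *Cd28* with *Tnfrsf9* reads 0.66 and 0.57.

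The genes that act with these receptors were read from fixed lists, over all cells. Of the 7 genes of the TRAF arm all passed the filter on low values, and all 7 were higher in the obese library, with a median log2 ratio of 0.21. *Birc2*, which encodes an inhibitor of apoptosis protein bound to TRAF2, was at 72.0 CPM in lean and 110 CPM in obese, a ratio of 0.61 (0.53 to 0.70), and 0.55 to 0.78 across the gates and ungated cells. All 7 NF-kB genes were higher too, with a median of 0.26. *Tnfaip3*, which encodes the NF-kB inhibitor A20, was at 268 and 389 CPM, a ratio of 0.54 (0.50 to 0.58). The 57.7% of all genes that were higher, with a median of 0.04, are the background for these lists. Intervals of *Traf3*, *Traf5* and *Map3k14* in the TRAF arm included 0. Past 0.5 upward was 1 gene in each list, against 2.51% of all genes. By gate, all 7 NF-kB genes were higher in effector (54.5% of all genes), memory-like (61.7%) and cycling cells (55.4%), and 6 of 7 in ungated cells (49.9%). Of the TRAF arm, 6 of 7 were higher in effector cells, 7 of 7 in memory-like cells, 6 of the 6 that passed in cycling cells and 3 of 7 in ungated cells. These counts go by sign alone, and *Traf3* counted as higher in effector cells at 0.0015 (−0.50 to 0.49). Intervals of some NF-kB genes included 0 in memory-like, cycling and ungated cells. Those of some TRAF arm genes did so in all 3 gates and in ungated cells.

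The 7 genes of PI3K and proximal signaling had 3 higher and 4 lower, with a median of −0.0012. The survival genes *Bcl2*, *Bcl2l1* and *Mcl1* were all higher over all cells, at 0.15, 0.46 and 0.14. *Bcl2* mixed directions, at −0.26 (−0.37 to −0.15) in memory-like cells, 0.86 in effector and 0.65 in cycling cells. Of 11 ligands 4 passed the filter and 3 of these were higher, with a median of 0.29, while *Tnfsf18*, the GITR ligand, had 0 UMIs in either library, which allows up to 0.108 CPM in lean and 0.105 CPM in obese. Of 10 other TNF receptor family genes only *Fas* passed, at 20.1 and 18.9 CPM. Among 6 other costimulatory receptors 3 were higher and 3 lower, with a median of −0.09. *Slamf6*, a SLAM family receptor, was at 14.3 CPM in lean and 25.1 CPM in obese, a ratio of 0.81 (0.63 to 0.99). *Cd244a*, the 2B4 receptor, was at 16.9 and 9.44 CPM, a ratio of −0.84 (−1.06 to −0.62).

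Of 4 receptors that oppose the 8 or share their ligands, 2 passed the filter, 1 higher and 1 lower. *Ctla4*, which binds the ligands of CD28, stood at 108 CPM in lean and 128 CPM in obese, a log2 ratio of 0.24 (0.17 to 0.31) beside the 0.45 of *Cd28*. In memory-like cells *Ctla4* was at 56.6 and 101 CPM, a ratio of 0.83 (0.65 to 1.02), beside 0.52 for *Cd28* and 0.72 for *Icos*. *Tigit* was below the filter over all cells, at 9.71 and 6.17 CPM, with 270 UMIs in lean and 177 in obese. Its log2 ratio there was −0.65 (−0.94 to −0.38). It passed in effector cells, at −0.85 (−1.43 to −0.30), and in ungated cells, at −0.62 (−1.38 to 0.15). In memory-like cells, where *Tigit* did not pass, the ratio was 0.51 (−0.55 to 1.63). *Cd96* was at 50.3 and 48.4 CPM over all cells. The interval of the *Cd96* ratio, −0.16 to 0.05, included 0.

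Finally, each receptor was compared with all genes over 15 points, the finer states of both libraries that held at least 50 cells, by Pearson's r of log2(CPM + 10) among 6483 genes. The points share libraries and their composition, and r is a description. *Tnfrsf9* was most like *Gpd2*, *Rab10* and *Ehd1* (r from 0.97 to 0.98), and *Tnfrsf1b* was most like *Cxcr6*, *Nkg7* and *Hcls1* (0.97). *Tnfrsf4* was nearest to *Sh3bgrl*, *Ptms* and *Pex16* (0.93 to 0.94), *Tnfrsf18* to *Rap2a*, *Smpdl3b* and *Tyk2* (0.93), and *Cd226* to *Lasp1*, *Aopep* and *5033430I15Rik* (0.93 to 0.94). *Cd28* was nearest to *Gm15472*, *Mbnl1* and *Crim1* (0.93 to 0.95), and *Icos* to *Ppt1*, *Surf1* and *Rac2* (0.90 to 0.91). *Cd27*, the flattest, had the lowest values, with *Igf2r*, *Bin3* and *Slamf7* (0.86 to 0.87). Among the 8 themselves r was 0.87 for *Tnfrsf4* with *Tnfrsf9*, and −0.46 for *Cd28* with *Tnfrsf9*.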

How the data were processed

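CD8+ TIL from B16-F0 tumors of lean (NC) and obese (WD) mice were sequenced as 1 library each. The authors deposited raw UMI counts per gene and cell; the submitters' processing notes name Cell Ranger 6.0.2 and mm10. Cells with under 7.5% mitochondrial UMIs and over 500 and under 50000 UMIs were kept, which left out 241 lean and 334 obese cells. Doublets were not removed.

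UMIs were summed per gate and library (Python 3.11.15, numpy 2.4.6, scipy 1.17.1, pandas 2.3.3) as CPM with exact Poisson intervals. Ratios carry exact conditional binomial intervals and shares Clopper-Pearson intervals, all at 95%. With 1 library per group no test was run. The receptor genes, lists and gates were chosen with earlier results of these data known. Named list genes are those past a log2 ratio of 0.5 over all cells with at least 10 CPM, *Ctla4*, *Tigit* and *Cd96*, and 3 similar genes per receptor; *Bcl2*, *Bcl2l1*, *Mcl1*, *Fas*, *Tnfsf18*, *Traf3*, *Traf5* and *Map3k14* were named after their values were seen. Not every gate gene is named here. Odds ratios describe detection in the same cell. The steps were tested on simulated counts. Of the alternatives, 11 covered scaling (with TMM factors of edgeR 4.0.16 in R 4.3.3), totals, depth, cell filters, gates and the background filter, and 2 (leaving out the 10 richest cells per gene, and a fixed mix of gates) were chosen after seeing the data.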

Additional observations from a re-analysis of the deposited data

Results flagged for a closer look

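The ratio of obese over lean took opposite signs, each with an interval that excluded 0, in different gates for 2 receptor genes, which is why they are listed. *Icos* was at a log2 ratio of 0.72 in memory-like cells, −0.46 in effector cells and −0.34 in cycling cells. The effector ratio minus the memory-like ratio was −1.17, with a counting interval of −1.53 to −0.81. *Tnfrsf18* was at 0.32 in effector cells, −0.31 in memory-like cells and −0.15 in cycling cells, and the effector ratio minus the memory-like ratio was 0.63 (0.45 to 0.80). With cells thinned to 2000 UMIs the *Tnfrsf18* ratio was −0.15 in effector and −0.35 in memory-like cells, values without an interval, so the opposite signs were no longer seen. The intervals leave out the spread between cells, and with 1 library per diet neither difference was tested between mice.

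Cells left out by the filters also held receptor UMIs, above the limit of 3 counts. The 83 lean and 121 obese cells with 50000 or more UMIs held 7969 and 11209 UMIs of the 8 genes. In them *Cd28* was at 120 CPM (111 to 129) in lean and 134 CPM (127 to 142) in obese, and *Tnfrsf9* at 469 and 328 CPM. The 158 lean and 213 obese cells with 7.5% or more mitochondrial UMIs held 293 and 554, with *Cd28* at 146 CPM (108 to 193) and 237 CPM (200 to 279).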

How the results depend on the processing

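No paired analysis was possible because each diet has 1 library. The number of receptor genes higher in the obese library in effector cells, 5, was 3 with each cell thinned to 2000 UMIs, with cells under 20000 UMIs, and without the 10 cells with the most UMIs of each gene. Leaving out 10 cells weighs more on the obese effector gate, which held fewer cells. The 0 genes higher in cycling than in effector cells in both libraries became 2 with a mean over cells and with thinning, and 1 with all deposited cells and without those 10 cells. The 2 genes at least 2-fold higher in cycling than in memory-like cells became 1 with other gate genes. With all genes of at least 20 UMIs in place of 10 CPM, the share of genes past a log2 ratio of 0.5 went from 4.35% to 14% over all cells, from 12.7% to 19.8% in effector, from 7.67% to 16.1% in memory-like and from 5.69% to 14.3% in cycling cells. Thinning turned the sign of *Icos* over all cells (0.0036), *Tnfrsf18* (−0.15) and *Cd27* (0.0084) in effector cells, and the *Icos* ratio of effector over memory-like cells in the obese library (−0.10). From ratios whose interval held 0, it also turned *Tnfrsf9* (0.02 to −0.31) and *Tnfrsf4* (0.13 to −0.21) in effector and *Cd27* (−0.08 to 0.06) in cycling cells. In the obese library, the cycling over effector ratios of *Tnfrsf9* (−0.31) and *Tnfrsf4* (−0.16), whose intervals excluded 0, turned positive as well. The cause was not tested. Thinning was 1 random draw that left fewer UMIs, and its ratios carry no interval, so the turned signs were not set against counting error. It also gave every cell equal weight, where summed levels weigh deep cells more, and it left out cells under 2000 UMIs. Of 712 recomputed single ratios 545 stayed within the counting interval, 163 moved outside it with the same sign or from a ratio whose interval held 0, and 4 turned. Ratios of cycling over effector cells were not part of these 712. *Cd28* kept its direction in every gate and alternative run, from 0.36 to 0.62. The TMM scaling, leaving mitochondrial and ribosomal protein genes out of the total, cells over 1000 UMIs and under 5% mitochondrial, CD8 cells without other lineage markers, and stricter gate cuts left each count within 1.5 times. Genes with few UMIs, such as *Tnfrsf1b* in ungated cells with 82 and 135, set the limit of depth.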
